A study of Homo sapiens with 12 samples.

Results

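The data described here are 6 arrays of treated cells, 3 taken after 24 h of exposure and 3 after 72 h, out of 12 arrays in the series. The arrays were chosen by their labels, and no measured value entered the choice. The cells were HK-2, immortalized human epithelium of the renal proximal tubule, used to look for expression signatures of nephrotoxic compounds. All groups were grown in DMEM and Ham's F12 with EGF, hydrocortisone, insulin, transferrin, selenite, Glutamax, penicillin and streptomycin, and exposure began close to confluence. The treated groups, Ota at 24 h and Ota at 72 h, received Ota at a high dose, a compound whose full name and amount the labels leave out. The other groups, control at 24 h and control at 72 h, received the vehicle for the same times and held 3 arrays each. The labels call the arrays biological replicates of 1 cell line and do not say whether the cultures were separate, so every p-value covers only the spread among these arrays, which may be technical. The question addressed is how expression moved between the earlier and the later exposure, and where that movement differed from the one in vehicle-treated cells over the same interval.

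The proximal tubule reabsorbs most of the filtered solutes and takes up many drugs and toxins, and it is a frequent site of toxic injury in the kidney. Injured tubule cells are known to draw on several transcriptional programmes: the heat shock response, which makes chaperones for unfolded cytosolic proteins, the unfolded protein response of the endoplasmic reticulum, the ATF4 response to amino acid shortage, and p53 signalling after DNA damage. Surviving cells may lose transporters of the mature tubule and re-enter the cell cycle.

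Each gene is given as a log2 GCRMA value, in which a difference of 1 is 1 log2 unit, and a change is the mean at 72 h minus the mean at 24 h. Of the 10729 genes tested with limma, 3966 were higher at 72 h than at 24 h in Ota cells (37.0%) and 2500 were lower (23.3%), at a Benjamini-Hochberg adjusted p under 0.05. At least 1 log2 unit separated the times for 2478 of the higher and 1390 of the lower genes, and at least 2 units for 740 and 441. In control cells 1313 genes were higher (12.2%) and 1426 lower (13.3%). These counts rest on 1 estimate of the spread shared by all 12 arrays. Fitted on their own arrays, Ota cells gave 3147 higher and 2035 lower genes, and control cells 2103 and 2206. A test of the difference between the changes called 3178 genes as moving more upward in Ota cells (29.6%) and 2135 as moving more downward (19.9%). Of the 3966 genes that rose in Ota cells, 2618 also passed this test of the difference, as did 1643 of the 2500 that fell. The Ota and control comparisons share no array. Genes that rose in both numbered 545, which is 13.7% of the Ota rises and 41.5% of the control rises, and genes that fell in both numbered 480, which is 19.2% and 33.7%. Opposite moves were made by 407 genes that rose in Ota cells and fell in control cells, and by 223 that did the reverse.

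Several array-wide measures moved with time in Ota cells. The array median over tested genes was 7.40 ± 0.16 (SD, n = 3) at 24 h and 7.68 ± 0.05 at 72 h. Poly-A spike-ins, bacterial RNAs added in fixed amounts before labelling, averaged 9.83 ± 0.24 and 8.91 ± 0.37. The gap between the 3′ and 5′ probe sets of ACTB, a measure of RNA integrity and labelling, was 1.23 ± 0.15 and 1.97 ± 0.33, while the same gap in GAPDH differed by 0.003 between the times (exact permutation p = 1.0). Hybridization controls, added after labelling, averaged 11.4 ± 0.09 at 24 h, and the mean at 72 h differed from that by -0.40. For the array median, the spike-ins, the ACTB gap and the hybridization controls the arrays of the 2 times did not overlap, and the exact permutation p was 0.1, the smallest that 3 against 3 arrays can give. In control cells the same measures differed by -0.002, 0.04, 0.21 and 0.11, with exact permutation p of 1.0, 0.7, 0.2 and 0.6. The part of these shifts in the gene changes was not tested. Scaling every array to its spike-ins adds 0.93 to every Ota change and turns the split into 7385 higher and 707 lower genes, so that 91.3% of calls were upward, against 61.3% on the deposited values. Centring each array on its median takes off 0.28 and gives 46.8%, and quantile normalization gives 53%. A change between -0.93 and 0.28 therefore has a direction only relative to other genes, and list medians below are given relative to the median of all genes, 0.18 in Ota cells and 0.0004 in control cells. Within groups, Ota arrays at 24 h correlated at 0.954 to 0.984 and those at 72 h at 0.976 to 0.989, over the tested genes. The second replicate at 24 h lay farthest from the 72 h mean, at r = 0.842, against 0.887 and 0.918 for the first and the third.

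**Figure D1:**
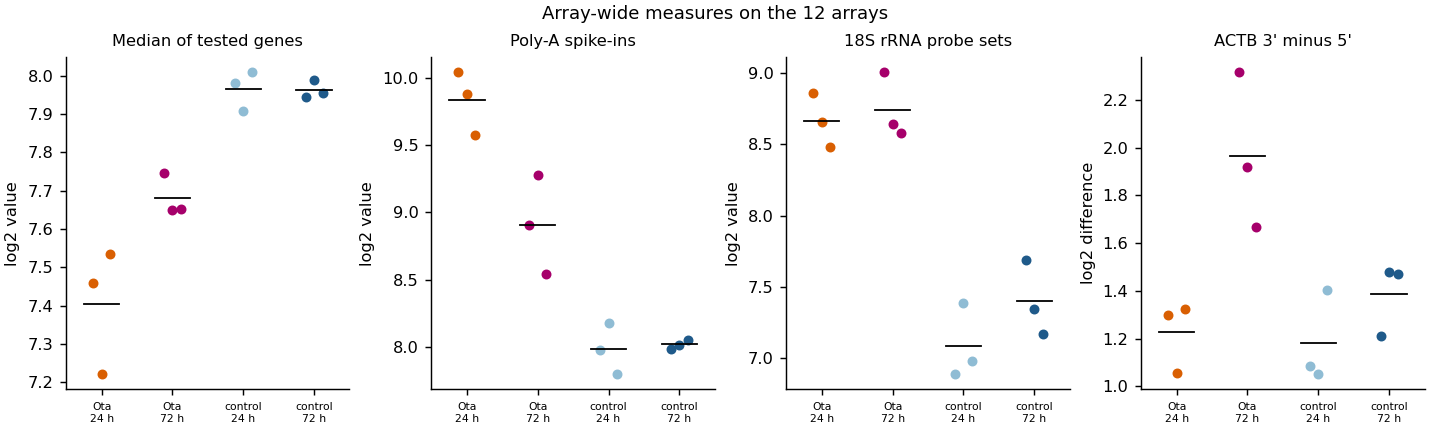
Array-wide measures on each of the 12 arrays, in log2 units, with points for arrays and lines for group means. From 24 to 72 h in Ota cells the median of the tested genes moved from 7.40 to 7.68 and the poly-A spike-ins from 9.83 to 8.91, while control arrays differed by -0.002 and 0.04.

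The 12 largest rises among genes whose arrays of the 2 times did not overlap ran from 4.27 to 4.98, and several started below 4, the level used as a filter. INHBE, a subunit of activin and a known stress-responsive secreted factor, read 2.73, 2.65 and 3.68 at 24 h and 8.40, 7.08 and 8.52 at 72 h. It rose by 4.98 ± 0.38 (SE, adjusted p = 1.3e-06), and it also rose in control cells, by 5.88, with no difference past the threshold between the changes (adjusted p = 0.18). CTPS1, which makes CTP for nucleic acid and phospholipid synthesis, read 2.74, 3.04 and 5.03 at 24 h and 8.15, 8.08 and 8.54 at 72 h, a rise of 4.65 ± 0.44 (adjusted p = 6.3e-06). The lowest array at 72 h was above the highest at 24 h for both genes. TMEM70, an assembly factor of mitochondrial ATP synthase, rose from 5.20, 4.35 and 7.55 to 10.56, 10.06 and 10.82, while control cells stayed between 10.25 and 10.83 on all 6 arrays. Its rise of 4.78 was 2.81 as a mean over its probe sets and 1.78 without cross-hybridizing ones. The other 9 genes were ZFYVE27, STAM, CARD10, IFRD1, LSM6, PUM3, RAP2B, RNF14 and MORC2. In each of the 12 the third 24 h array read highest of its group, so they shared a pattern among the 24 h arrays. That array also had the highest median of the 24 h Ota arrays (7.53) and the lowest spike-ins (9.58). The part of this in the rises was not tested. Group means at 24 h were under 4 for INHBE, ZFYVE27, STAM, CARD10, LSM6, CTPS1 and PUM3. Their 24 h SDs ran from 0.57 for INHBE to 1.47 for CARD10, where the median over genes was 0.31. The size and order of these rises are therefore uncertain. The test of the difference from the control change was passed by all of the 12 except INHBE and IFRD1 (adjusted p = 0.063 for the latter). It includes the Ota change by which the 12 were chosen, so passing it is no separate support.

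The 12 largest falls ran from -3.99 to -5.67. UCP2, a carrier of the inner mitochondrial membrane, fell by 5.67 ± 0.30 on the log2 scale (adjusted p = 2.2e-07), from 11.26, 11.74 and 10.92 to 5.29, 6.45 and 5.17. Control cells held UCP2 between 11.91 and 11.96 at 24 h and between 10.72 and 10.92 at 72 h. NDUFB10, a subunit of respiratory complex I, fell from 10.64, 11.34 and 10.29 to 5.22, 6.40 and 5.17, a change of -5.16 ± 0.32 (adjusted p = 4.6e-07), and control cells showed -0.36. KDELR3, a receptor that returns chaperones to the endoplasmic reticulum, went from 10.39, 10.91 and 10.36 to 5.98, 7.66 and 3.04, and the spread at 72 h (SD 2.34) was the widest of the 12. FGF18, a growth factor, was near the bottom of the scale in all 6 control arrays (2.83 to 3.00), stood at 11.42, 10.97 and 11.13 in Ota cells at 24 h and fell to 6.47, 8.15 and 5.02. The remaining 8 were TMEM256, SLC39A4, C19orf33, APEH, RNASEH2A, MICOS13, DYNC2I2 and IL32. In each of the 12 except FGF18 the third 24 h array read lowest of its group. All 12 of these falls also passed the test against the control change. That test includes the Ota change by which they were chosen, so it is no separate support.

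**Figure D2:**
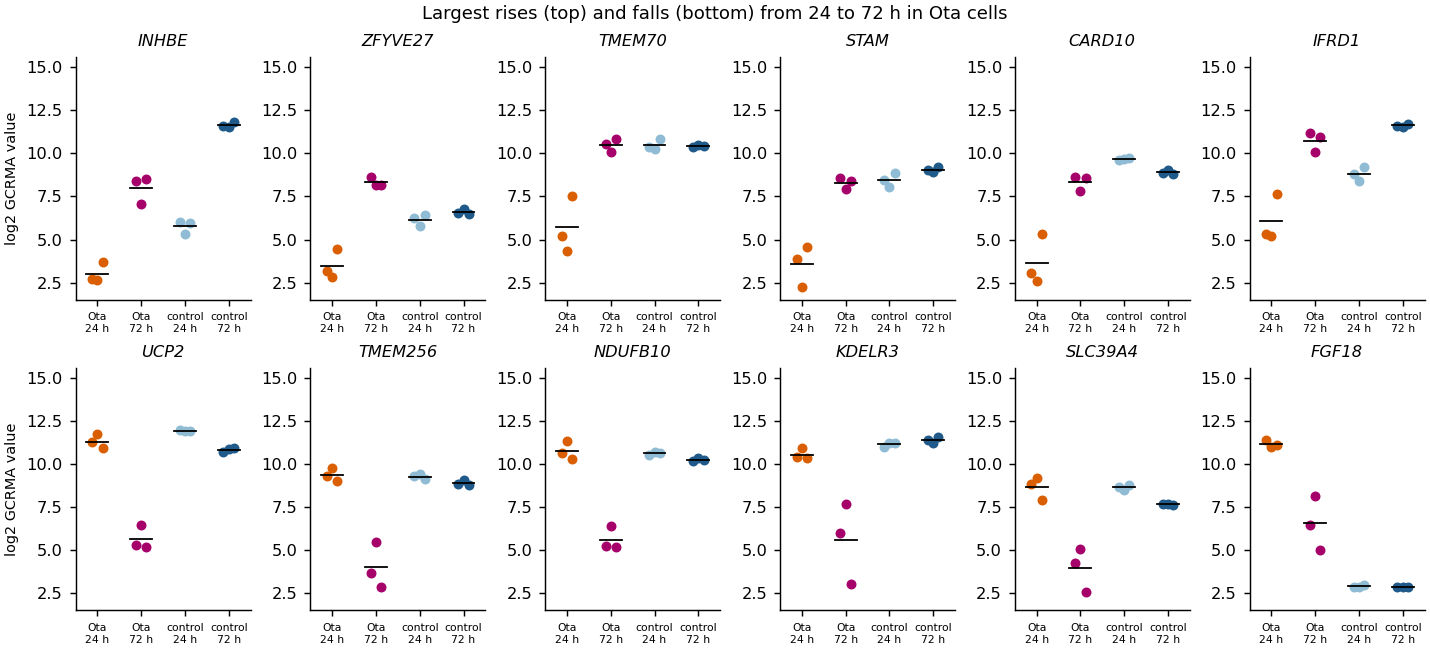
Values of the 6 largest rises (top) and 6 largest falls (bottom) on the 12 arrays, in log2 GCRMA units, with points for arrays and lines for group means. INHBE moved from 2.65 to 3.68 at 24 h to 7.08 to 8.52 at 72 h in Ota cells, and UCP2 from 10.92 to 11.74 down to 5.17 to 6.45.

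Chaperones of the heat shock response were mostly higher at the later time. Of 19 measured heat shock genes 14 rose and 2 fell, where 37.0% and 23.3% of all genes did, and the median change exceeded the general one by 1.25, against -0.12 in control cells. In 12 the change was higher than in control cells and in 0 it was lower, beside 29.6% and 19.9% of all genes. STIP1, which couples Hsp70 to Hsp90, read 8.59, 9.16 and 8.83 at 24 h and 11.37, 11.07 and 11.40 at 72 h. This rise of 2.42 ± 0.16 (adjusted p = 6.6e-07) stood beside a fall of 0.66 in control cells, from 10.60, 10.63 and 10.44 to 9.92, 9.92 and 9.85. CHORDC1, an Hsp90-binding co-chaperone, rose by 3.40 ± 0.41 (adjusted p = 3.1e-05), from 5.87, 4.36 and 6.05 to 9.22, 8.09 and 9.16. The Hsp40 proteins DNAJB1 and DNAJA1, which deliver clients to Hsp70, rose by 2.44 and 2.18, and DNAJA1 reached 13.82, 13.65 and 13.62 at 72 h, above all 6 control arrays (11.59 to 11.88). The small heat shock proteins CRYAB and HSPB1 were the 2 that fell. CRYAB changed by -1.33 ± 0.22 (adjusted p = 0.0003), and by -0.40, no longer past the threshold, after scaling to the spike-ins. The inducible Hsp90 gene HSP90AA1 was already at 14.29, 14.10 and 14.05 at 24 h and did not pass the test (adjusted p = 0.127). Dropping cross-hybridizing probe sets reduced the list to 10 members and its relative median to 0.63, and leaving out the second 24 h array gave 0.93.

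Promoters of heat shock genes are known to carry inverted GAA repeats that bind HSF1, and they are shown because members of this list rose together. RefSeq promoters (GRCh38.p14, 300 bases around the start) were matched for 16 of the 19 genes. The motif GAANNTTC, which reads the same on both strands, was found in 5 of them (CHORDC1, DNAJA1, DNAJB6, HSPB8 and HSPB1), in 4.66% of the 8889 promoters of tested genes and in 6.87% of all 27305 promoters. A match is only a description of the letters. HSPB1 holds 1 match and fell, and STIP1, DNAJB1 and BAG3 hold 0 in this window and rose. The promoters of CHORDC1 (chr11:90223000-90223299, minus strand, 3 matches) and DNAJA1 (chr9:33025023-33025322, plus strand, 2 matches) follow, with the matches in capitals.
CHORDC1: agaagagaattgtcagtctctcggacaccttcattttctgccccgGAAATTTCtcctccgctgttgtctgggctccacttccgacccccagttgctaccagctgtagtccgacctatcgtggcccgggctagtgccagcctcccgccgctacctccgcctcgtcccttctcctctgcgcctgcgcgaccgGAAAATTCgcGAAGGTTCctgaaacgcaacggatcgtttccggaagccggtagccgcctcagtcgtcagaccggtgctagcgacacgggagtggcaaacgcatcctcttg
DNAJA1: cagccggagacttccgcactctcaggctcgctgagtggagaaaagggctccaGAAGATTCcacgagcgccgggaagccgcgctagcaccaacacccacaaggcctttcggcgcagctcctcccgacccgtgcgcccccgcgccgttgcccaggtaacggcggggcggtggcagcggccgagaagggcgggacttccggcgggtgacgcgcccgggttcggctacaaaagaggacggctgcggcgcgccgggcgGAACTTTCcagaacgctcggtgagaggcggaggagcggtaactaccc

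The proteasome, which degrades ubiquitin-tagged proteins, had 18 of 28 measured genes higher and 5 lower at 72 h. Of all genes 37.0% were higher and 23.3% lower, and the list's relative median was 0.35. In control cells 13 members fell and 0 rose, beside 13.3% and 12.2% of all genes. The change was more upward in Ota cells for 18 members and more downward for 1, beside 29.6% and 19.9%. PSMD12, a subunit of the regulatory lid, rose by 2.49 ± 0.28 (adjusted p = 1.9e-05), from 8.36, 7.77 and 9.14 to 11.04, 10.66 and 11.04, and by 1.59 as a mean over its probe sets. Core subunit PSMA5 rose by 1.39 and the ATPase PSMC4 by 1.42. PSMB3 went the other way, by -1.39, and fell in control cells as well (-1.20), but it was not called after spike-in scaling (-0.46). The members thus did not move as a block, and core and regulatory subunits were found on both sides.

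Genes of the endoplasmic reticulum and of the ATF4 response rose less widely in Ota cells than in control cells. Of 31 measured chaperones and degradation factors of the endoplasmic reticulum, 16 rose and 6 fell in Ota cells. Of all genes 37.0% rose and 23.3% fell. In control cells 27 members rose and 0 fell, beside 12.2% and 13.3% of all genes. The list's relative medians were 0.26 in Ota and 1.77 in control cells. The change was lower than in control cells for 23 members and higher for 1, beside 19.9% and 29.6% of all genes. HSPA5, the main Hsp70 of the endoplasmic reticulum, read 11.24, 11.21 and 11.39 at 24 h and 13.90, 13.60 and 13.51 at 72 h in Ota cells. Its rise of 2.39 ± 0.16 (adjusted p = 6.6e-07) was close in size to the 2.54 in control cells (adjusted p of the difference 0.60, difference -0.15 ± 0.23). ERN1, the sensor kinase known as IRE1, rose by 2.52 and its target XBP1 by 2.25, while control cells gained 3.89 and 2.07. With spike-in scaling the members called lower than in control cells numbered 11 in place of 23, and those called higher 2. The relative median in Ota cells was 0.42 without the second 24 h array.

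Among 31 ATF4 targets 18 rose and 8 fell in Ota cells, beside 37.0% and 23.3% of all genes, so the falls were near the general share. In control cells 28 rose and 0 fell, beside 12.2% and 13.3%. The relative medians were 0.46 in Ota and 1.77 in control cells. The change was more downward in Ota cells for 20 members, beside 19.9% of all genes, and for 13 with spike-in scaling. CTH and GDF15, an enzyme of cysteine synthesis and a secreted stress cytokine, rose in Ota cells by 2.99 and 2.04, about as in control cells (2.77 and 2.23). DDIT3, the transcription factor CHOP, rose from 5.50, 5.37 and 6.74 to 8.11, 7.54 and 7.96 in Ota cells, while control cells went from 6.68, 7.08 and 6.69 to 11.74, 11.73 and 12.04. The difference between the DDIT3 changes was -3.02 ± 0.44 (adjusted p = 0.00024). ATF3 rose by 0.65 in Ota cells, where it already stood at 7.44, 7.72 and 7.69 at 24 h, and by 5.29 in control cells, where it stood at 3.86, 3.56 and 4.60. Of the enzymes of serine synthesis, PHGDH changed by -1.48 in Ota cells and 1.08 in control cells and PSAT1 by -1.36 and 0.58, whereas PSPH rose in both, by 0.94 (adjusted p = 0.00046) and 1.17. Asparagine synthetase, ASNS, changed by -0.84 and 2.75, the former a direction only relative to other genes. CBS, which starts the conversion of homocysteine to cysteine, had the largest fall of the list, from 6.26, 6.60 and 6.07 to 3.23, 2.90 and 3.42 (-3.13 ± 0.19, adjusted p = 4.3e-07), beside a rise of 0.81 in control cells. The tRNA synthetases, which charge tRNAs and of which several are ATF4 targets, were mixed: 7 of 17 rose and 4 fell in Ota cells, shares near the 37.0% and 23.3% of all genes, and 10 rose and 0 fell in control cells. FARSA rose by 2.73 (1.73 without cross-hybridizing probe sets) and VARS1 fell by 1.79.

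**Figure D3:**
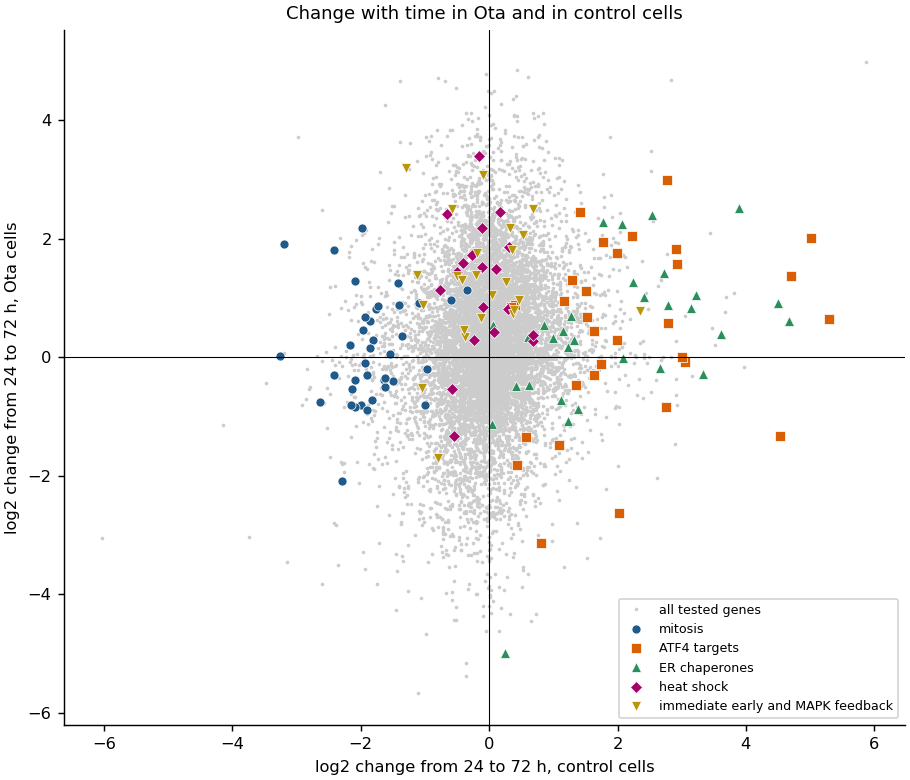
Log2 change from 24 to 72 h of each of the 10729 tested genes in control cells (horizontal) and Ota cells (vertical), with the measured members of 5 lists marked by colour and symbol. Mitosis genes lie left of 0 in control cells (36 of 38 fell), ATF4 targets and chaperones of the endoplasmic reticulum lie right of 0 (28 of 31 and 27 of 31 rose), and heat shock genes spread upward along the vertical axis (14 of 19 rose in Ota cells).

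Immediate early genes and feedback inhibitors of the MAPK cascade, which are induced within minutes of growth factor or stress signals, were higher at the later time. Of 24 measured, 18 rose and 1 fell in Ota cells, beside 37.0% and 23.3% of all genes, and the relative median was 1.10. The change was more upward than in control cells for 17 and more downward for 2, beside 29.6% and 19.9%. FOSL2, a subunit of the AP-1 transcription factor, read 4.98, 4.12 and 5.33 at 24 h and 7.84, 7.60 and 8.57 at 72 h. It rose by 3.20 ± 0.35 (adjusted p = 1.5e-05), while control cells changed by -1.29 (adjusted p = 0.017). JUN, its partner in AP-1, rose from 8.12, 7.98 and 8.13 to 10.34, 9.64 and 10.41, above all 6 control arrays (8.06 to 9.08). The inhibitors SPRED2 and DUSP5 rose by 3.08 and 2.50, and DUSP5, a nuclear phosphatase of ERK, went from 5.76, 6.10 and 7.49 to 8.74, 8.45 and 9.67. EGR1, a zinc finger factor of the same group, was the 1 that fell, by 1.71 ± 0.23, from 9.50, 9.59 and 9.27 to 8.11, 7.72 and 7.41, and it fell in control cells by 0.79. Without cross-hybridizing probe sets 18 members stayed and the relative median was 0.77.

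Targets of p53, the tumour suppressor activated by DNA damage, rose in 11 of 20 cases and fell in 1. Of all genes 37.0% rose and 23.3% fell, and the list's relative median was 0.59. In control cells 4 targets rose and 0 fell, beside 12.2% and 13.3% of all genes. CDKN1A, which encodes the cell cycle inhibitor p21, read 8.84, 8.74 and 9.05 at 24 h and 10.79, 10.56 and 11.28 at 72 h, above the 6 control arrays (8.08 to 8.79). The rise was 2.00 ± 0.19 (adjusted p = 6.1e-06). TIGAR, a regulator of glycolysis, rose by 2.88, the mRNA-binding protein gene ZMAT3 by 2.48 and the death receptor TNFRSF10B from 9.30, 8.71 and 10.01 to 11.77, 11.97 and 11.48. MDM2, which marks p53 for degradation, rose by 2.15 from 6.31, 4.59 and 6.39 to 8.24, 7.61 and 7.90, against 7.95 to 8.70 on the control arrays. TP53I3, an oxidoreductase, fell by 3.78 ± 0.26 (adjusted p = 7.3e-07), from 6.43, 7.44 and 6.73 to 2.70, 3.43 and 3.14. Several p53 targets, FAS and TNFRSF10B among them, encode receptors of the extrinsic death pathway. Of 20 regulators of apoptosis 10 rose and 1 fell, beside 37.0% and 23.3% of all genes, with a relative median of 0.40. Without the third 72 h array 8 rose and that median was 0.20, and centring gave 7 higher and 4 lower. They acted on both sides: TNFRSF1A, the TNF receptor, rose by 3.04, the initiator caspase gene CASP8 by 1.63 and the BH3-only gene BIK by 2.07 (1.38 without the second 24 h array), while BIRC2, an inhibitor of TNF-induced death, rose by 2.71. BCL2, which protects mitochondria, changed by -0.69 (adjusted p = 0.025), a direction only relative to other genes.

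Cytokines and other NF-kB targets differed widely among the 72 h arrays. Of 20 measured 11 rose and 3 fell, beside 37.0% and 23.3% of all genes. The number of rises was 7 without the first 24 h array and 7 without the third 72 h array. It was 8 to 10 without any other Ota array. IL6 read 3.96, 4.81 and 4.55 at 24 h and 6.12, 6.07 and 10.23 at 72 h. Its change was 3.04 ± 0.85 (adjusted p = 0.0091), and 1 array carried much of it. Without that array, the third, the change was 1.66, and fitted on the Ota arrays alone IL6 did not pass the threshold. The neutrophil chemokine CXCL2 had its highest value, 10.89, on the same 72 h array, beside 8.20 and 8.69, as did CCL20, with 9.44 beside 6.54 and 8.31. The CXCL2 change was 2.30 with this array and 1.48 without it. IL32 fell by 3.99 ± 0.29 (adjusted p = 9.5e-07), from 10.65, 10.65 and 10.24 to 6.05, 6.99 and 6.51, with the times far apart.

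Of 25 interferon-stimulated genes 10 fell and 3 rose, where 23.3% and 37.0% of all genes did. The relative median was -0.44, against 0.007 in control cells. IFIT1, which binds viral RNA caps, read 8.84, 8.75 and 8.94 at 24 h and 5.30, 6.26 and 4.91 at 72 h. It fell by 3.36 ± 0.28 (adjusted p = 2.7e-06), and by 1.36 in control cells. BST2, which tethers virions, fell by 2.23, the IFIT1 relative IFIT2 by 1.77 and the ubiquitin-like modifier ISG15 by 1.66. IRF1, a transcription factor upstream of many of these genes, rose by 1.06. The list's own direction depends on scaling: relative to the spike-ins 12 members were higher and 4 lower.

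Cell cycle genes moved apart between Ota and control cells. In control cells 36 of 38 mitosis genes fell and 0 rose, beside 13.3% and 12.2% of all genes, with a relative median of -1.88. In Ota cells 12 rose and 9 fell, shares near the 37.0% and 23.3% of all genes, and the relative median was -0.15. The difference was upward for 36 of the 38 and downward for 0, beside 29.6% and 19.9% of all genes. After centring it was upward for 35 and downward for 0, and under spike-in scaling for 38 and 0. CCNB1, the cyclin of entry into mitosis, read 7.44, 7.44 and 8.51 in Ota cells at 24 h and 10.02, 9.47 and 10.43 at 72 h, while control cells went from 11.50, 11.69 and 11.91 to 9.55, 9.92 and 9.69. The Ota rise was 2.18 ± 0.30 (adjusted p = 8.7e-05) and the difference from the control change 4.15 ± 0.43 (adjusted p = 2.8e-05). MKI67, a marker of dividing cells, rose from 6.97, 7.55 and 7.87 to 9.07, 9.24 and 9.52 beside a control fall from 10.95, 11.19 and 10.65 to 8.59, 8.75 and 8.22. Its Ota rise was 1.81, and 1.04 as a mean over its probe sets. The MKI67 values of Ota cells at 72 h lay above those of control cells at 72 h and below those at 24 h, while for CCNB1 the Ota and control arrays at 72 h overlapped. The spindle motor gene KIF20A fell by 2.09, beside a control fall of 2.30. The mitotic kinases were mixed: AURKB rose by 0.81 (adjusted p = 0.002), and AURKA and PLK1 changed by -0.84 and -0.80, within the range whose direction depends on scaling. After centring, which takes off the general shift, 10 mitosis genes were higher and 17 lower in Ota cells. The relative median was -0.02 without the third 24 h array, -0.04 without the first 72 h array and -0.23 without the first 24 h or the third 72 h array. Without cross-hybridizing probe sets 30 members remained, of which 8 rose and 8 fell in Ota cells, with a relative median of -0.49. Means over probe sets gave 9 rises and 12 falls.

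Genes of DNA replication fell in control cells in 31 of 37 cases and rose in 0, beside 13.3% and 12.2% of all genes. In Ota cells 17 rose and 8 fell, beside 37.0% and 23.3% of all genes. Of the members 30 changed more upward than in control cells against 1 more downward, beside 29.6% and 19.9% of all genes. The Ota counts became 12 and 12 after centring and 24 and 3 with spike-in scaling, and those of the difference 27 and 2 and then 31 and 0. CDC6 and RFC3, a licensing factor and a clamp loader subunit, rose by 2.56 and 3.61, and RFC3 went from 6.19, 4.67 and 7.11 to 9.45, 9.36 and 9.98. The helicase factor CDC45 rose from 5.96, 6.53 and 6.39 to 7.70, 8.01 and 8.24, while control cells went from 7.98, 8.21 and 8.27 to 5.92, 6.01 and 5.98. TK1, the thymidine salvage kinase, fell by 3.82 ± 0.28 (adjusted p = 1e-06), from 9.82, 10.64 and 9.73 to 5.64, 6.73 and 6.37. The lagging-strand enzymes LIG1 and POLD1 fell by 1.88 and 1.73, close to the control changes of -1.80 and -1.74.

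Clustered histone genes, whose mRNAs mostly lack a poly-A tail and are made in S phase, had 15 of 36 members measured. Of these 9 rose and 3 fell in Ota cells, beside 37.0% and 23.3% of all genes. H2BC21 stood at 2.30, 2.28 and 2.29 at 24 h, at 2.19 to 2.29 on all 6 control arrays, and at 5.96, 6.21 and 6.44 at 72 h. It passed the filter on low values only through the Ota arrays at 72 h, so this difference is a description. H1-2, a linker histone, rose by 1.83 in Ota cells and fell by 1.83 in control cells. H2AC8 fell by 1.21 (adjusted p = 0.016), its arrays of the 2 times overlapped, and the call was lost without the third 24 h array or without the first or the third 72 h array. Members of this family are near-identical in sequence, and without cross-hybridizing probe sets 8 remained, with a relative median of 0.21 in place of 0.72.

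**Figure D4:**
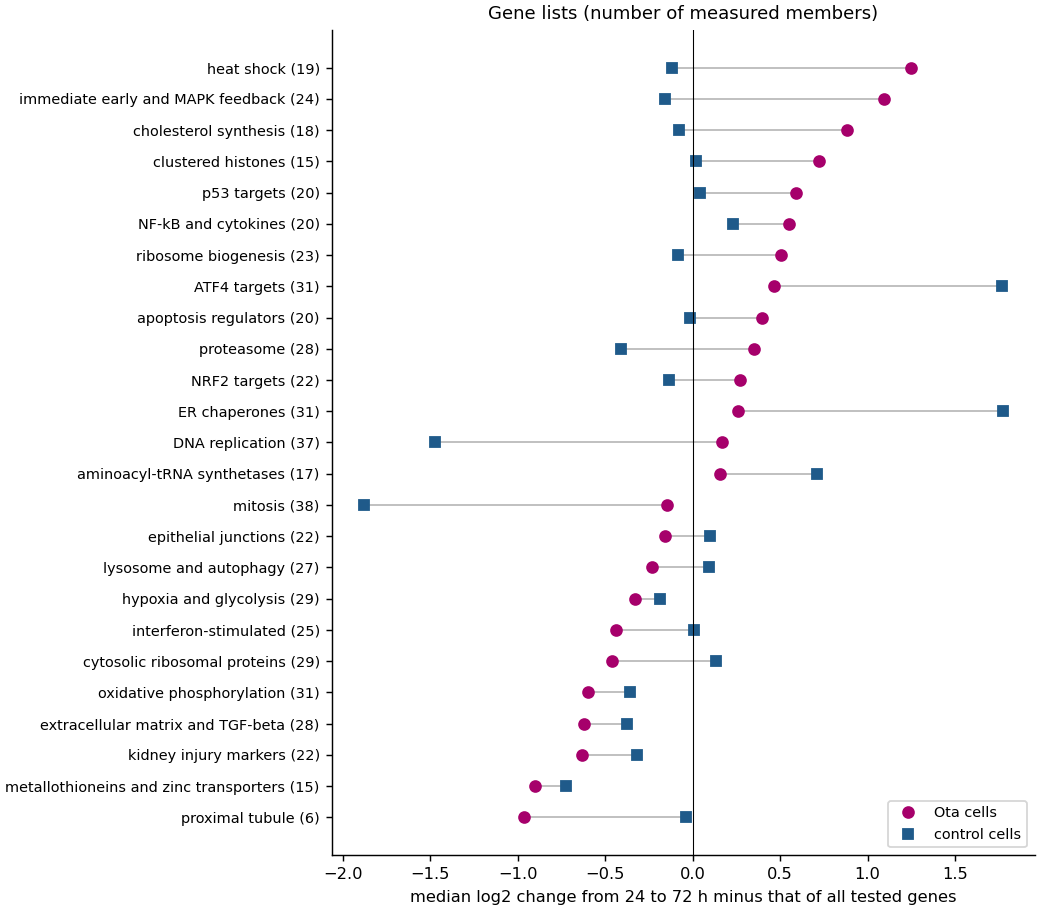
Median log2 change from 24 to 72 h of 25 gene lists minus the median of all tested genes, for Ota cells (circles) and control cells (squares), with the number of measured members in brackets. Heat shock genes stood highest in Ota cells (1.25) and the 6 measured proximal tubule genes lowest (-0.96), and mitosis genes were at -0.15 in Ota cells and -1.88 in control cells.

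Genes of cholesterol synthesis, which SREBP-2 induces when membrane sterol is low, rose in 10 of 18 cases and fell in 3. Of all genes 37.0% rose and 23.3% fell, and the list's relative median was 0.88. None of the 18 rose in control cells, where 4 fell, beside 12.2% and 13.3% of all genes. NSDHL, a late enzyme of the pathway, read 5.66, 6.64 and 5.85 at 24 h and 10.04, 9.41 and 9.90 at 72 h, above all 6 control arrays (8.35 to 8.93). The rise was 3.74 ± 0.25 (adjusted p = 7.3e-07). Early enzymes rose as well, HMGCS1 by 2.09, MVK by 2.59 (1.71 without cross-hybridizing probe sets) and IDI1 by 1.91, and so did STARD4, a sterol carrier, by 4.12, and SQLE, the first oxygen-dependent step, from 9.76, 9.73 and 10.05 to 12.33, 11.70 and 12.49. TM7SF2, a sterol reductase, fell by 3.88 ± 0.55 (adjusted p = 0.0001), from 7.23, 7.65 and 6.39 to 2.27, 4.78 and 2.57.

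Respiratory chain genes were lower on balance: of 31 measured 15 fell and 4 rose, beside 23.3% and 37.0% of all genes. The relative median was -0.60. In control cells 12 fell and 0 rose, beside 13.3% and 12.2%. UQCRC1, a core subunit of complex III, went from 11.41, 11.84 and 10.94 to 8.81, 9.09 and 9.57, a fall of 2.24 ± 0.27 (adjusted p = 3.4e-05), and control cells fell by 0.94. ATP5MC1, a subunit of the ATP synthase rotor, fell by 2.67. NDUFA8 of complex I rose by 1.26 while NDUFB10 of the same complex had the fall of 5.16 described above. Spike-in scaling turned the count to 13 higher and 5 lower, though these 3 falls are larger than that shift.

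Glycolytic enzymes and hypoxia targets were split, with 10 of 29 higher and 10 lower, beside 37.0% and 23.3% of all genes. Enzymes of the main glycolytic path accounted for the larger falls: PFKL by 2.07, GPI by 1.62 and GAPDH by 1.03. GAPDH went from 15.18, 15.43 and 15.20 to 13.81, 14.79 and 14.11, and spike-in scaling, which adds 0.93, takes away most of its fall. The glucose transporter SLC2A3 rose by 1.44 ± 0.20 (adjusted p = 0.0001), from 7.80, 7.91 and 7.32 to 9.14, 9.09 and 9.13, and PFKFB3 by 1.05. The number of rises fell to 4 without the first 72 h array and to 6 without the second 24 h array, and was 4 after centring. Spike-in scaling gave 17 higher and 3 lower. Lysosome and autophagy genes were split too, with 8 of 27 in each direction, beside the same 37.0% and 23.3% of all genes. This split became 16 higher and 3 lower with spike-in scaling and 8 and 13 after centring. Proton pump subunits ATP6V1B2 and ATP6V1C1 rose by 3.45 and 1.75 and the autophagosome factor WIPI1 by 3.10, while the proteases CTSZ, CTSB and CTSD fell by 2.01, 1.59 and 1.54.

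Of 22 NRF2 targets, which counter oxidants and electrophiles, 7 rose and 4 fell, beside 37.0% and 23.3% of all genes. The relative median was 0.27, 0.16 without the second 24 h array and 0.06 without the third 72 h array, which left 5 rises and 5 falls. TXNRD1, thioredoxin reductase, rose from 10.46, 9.98 and 11.07 to 12.03, 11.89 and 12.40, and the aldo-keto reductase AKR1C3 by 2.20. NQO1, a quinone reductase often used as an index of NRF2 activity, fell by 3.28 ± 0.34 (adjusted p = 1e-05), from 10.35, 10.62 and 9.84 to 6.67, 7.93 and 6.37, while control cells showed -0.14. SQSTM1, an autophagy receptor, was 1.36 higher by its brightest probe set and -0.58 by the probe set that remains without cross-hybridizing ones, so no direction is given for it. Centring turned the list's count to 6 higher and 7 lower.

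Metallothioneins, small proteins that bind zinc, copper and cadmium, fell on the deposited scale in the 7 cases measured. MT1E, MT1F, MT1G, MT1H, MT1M, MT1X and MT2A changed by -1.78 to -3.57 in Ota cells and also fell in control cells, by less, and the difference passed the threshold in each. MT2A, the most widely expressed, read 14.14, 14.41 and 13.82 at 24 h and 11.38, 11.64 and 11.88 at 72 h, with 14.36 to 14.40 and 13.29 to 13.39 in control cells. Its fall of 2.49 ± 0.17 had an adjusted p of 7.6e-07, and the difference from the control change was -1.46 ± 0.24 (adjusted p = 0.00053). MT1G fell from 11.08, 11.27 and 10.57 to 7.82, 8.03 and 8.08. These genes are close paralogs whose probe sets can share transcripts, so the 7 values are not independent. The zinc importer SLC39A14 rose by 1.30 and the exporters SLC30A5 and SLC30A7 rose, while MTF1, the zinc-sensing activator of metallothionein genes, fell. Over the whole list of 15 metallothioneins and zinc transporters 3 rose and 9 fell, beside 37.0% and 23.3% of all genes. The relative median was -0.90, and spike-in scaling gave 6 rises and 7 falls. Without cross-hybridizing probe sets 9 members remained, of which 3 were higher and 2 lower, with a relative median of -0.21. The members changing more downward than in control cells then numbered 1 in place of 7.

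Metallothionein promoters are known for short metal response elements, and they are shown because these genes fell together. The core letters TGCACNC or TGCGCNC were searched on both strands with overlaps allowed in the RefSeq promoters (GRCh38.p14) matched for 10 of the 15 genes of this list. They occurred in 5, against 39.6% of promoters of tested genes and 29.3% of all promoters, so that presence alone is common. MT1H held 8 matches, MT2A 8 and MT1X 4, SLC30A1 2 and SLC39A6 1. The promoters of MT2A (chr16:56608334-56608633, plus strand) and MT1X (chr16:56682220-56682519, plus strand) follow, with matches on either strand in capitals.
MT2A: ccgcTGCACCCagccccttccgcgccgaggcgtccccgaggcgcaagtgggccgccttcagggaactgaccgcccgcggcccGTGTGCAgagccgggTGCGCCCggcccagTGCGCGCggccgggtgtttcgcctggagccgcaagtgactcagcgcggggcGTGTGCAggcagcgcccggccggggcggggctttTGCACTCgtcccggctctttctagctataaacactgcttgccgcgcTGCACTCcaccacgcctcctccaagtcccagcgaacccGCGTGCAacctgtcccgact
MT1X: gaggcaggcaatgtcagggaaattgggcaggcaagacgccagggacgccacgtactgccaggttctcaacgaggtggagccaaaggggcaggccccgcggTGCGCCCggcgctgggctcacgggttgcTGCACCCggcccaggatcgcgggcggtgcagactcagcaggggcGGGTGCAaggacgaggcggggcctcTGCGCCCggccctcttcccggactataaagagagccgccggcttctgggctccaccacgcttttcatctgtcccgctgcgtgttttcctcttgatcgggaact

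Genes of ribosome assembly rose in 15 of 23 cases and fell in 0, beside 37.0% and 23.3% of all genes. The relative median was 0.50. In control cells 0 rose and 1 fell, beside 12.2% and 13.3%. POLR1C, a subunit shared by RNA polymerases I and III, went from 4.16, 3.76 and 6.13 to 7.72, 7.11 and 7.96, a rise of 2.92 ± 0.47 (adjusted p = 0.00026). NOP16 and RRS1, nucleolar assembly factors, rose by 2.08 and 1.93. The proteins of the finished cytosolic ribosome did not follow: 0 of 29 rose and 13 fell, beside the same 37.0% and 23.3%. Their relative median was -0.46. RPL14 had the largest fall, 1.42 ± 0.14 (adjusted p = 9.8e-06), from 14.63, 14.64 and 14.61 to 13.04, 13.49 and 13.10. The number of falls was 8 without the first 24 h array, 8 without the first 72 h array and 8 without the third, 7 after quantile normalization and 24 after centring. With spike-in scaling 20 members were higher and 0 lower, so no direction can be given for this family.

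**Figure D5:**
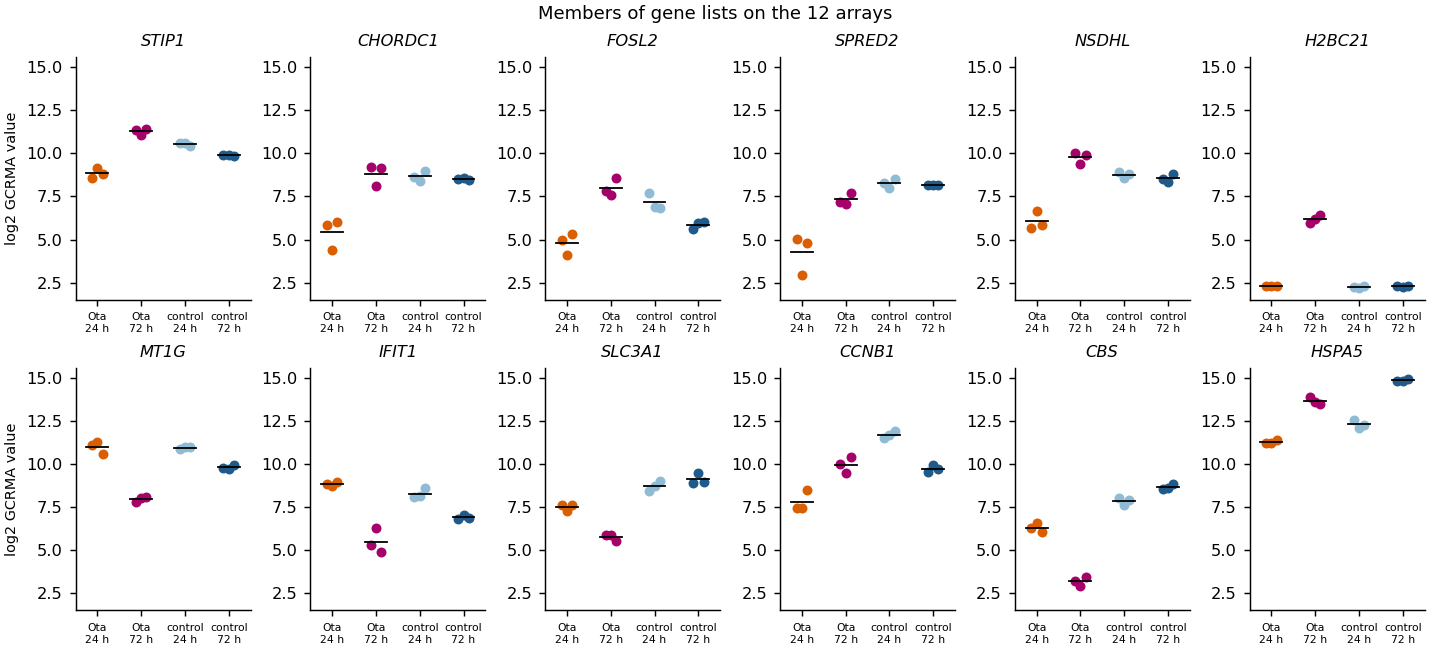
Values of 12 list members on the 12 arrays, in log2 GCRMA units, with points for arrays and lines for group means. STIP1 moved from 8.59 to 9.16 at 24 h to 11.07 to 11.40 at 72 h in Ota cells, MT1G from 10.57 to 11.27 down to 7.82 to 8.08, and CCNB1 rose in Ota cells while it fell in control cells.

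The labelled cell type was checked against 27 proximal tubule genes, of which 6 were measured above the filter, SLC4A4, SLC3A1, GATM, PAX8, DPP4 and CDH6. The other 21, among them the transporters SLC34A1 and SLC22A6 and the endocytic receptors LRP2 and CUBN, did not pass the filter on low values, so much of the mature tubule's programme was not measured in any group. In Ota cells 1 of the 6 rose and 4 fell, beside 37.0% and 23.3% of all genes, with a relative median of -0.96. SLC3A1, a subunit of the cystine transporter, read 7.60, 7.25 and 7.60 at 24 h, 5.89, 5.90 and 5.53 at 72 h and 8.44 to 9.50 in control cells. It fell by 1.71 ± 0.21 (adjusted p = 3.5e-05), with no change past the threshold in control cells (0.39, adjusted p = 0.21). The cadherin CDH6 fell by 1.25 by its brightest probe set (-0.32 and not called after spike-in scaling). Its 4 other probe sets changed by -3.35 to -2.18, and the mean over its probe sets by -2.29. GATM, an enzyme of creatine synthesis, rose by 1.05, though that call was lost without the first or the third 72 h array. Summed on the linear scale, the 6 genes gave 6697 to 7760 per array at 24 h, 3264 to 5248 at 72 h and 9997 to 12190 in control cells. With spike-in scaling 2 of the 6 were higher and 1 lower. In such whole-culture RNA, fewer cells of a type and less RNA per cell cannot be told apart. Of the markers of other cells, 0 of 6 endothelial and 0 of 6 leukocyte genes were measured. Of 7 fibroblast markers 3 were measured, and in Ota cells 1 rose and 2 fell. Their sum went from 3165 to 5214 down to 1220 to 2414 in Ota cells, and from 2737 to 4040 down to 861.9 to 1252 in control cells. Podocyte markers (3 of 6 measured) had 0 higher and 1 lower in Ota cells, and distal nephron and collecting duct markers (2 of 8) the same.

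Markers of tubule injury did not rise as a group in Ota cells. Of 22 measured 8 fell and 5 rose, beside 23.3% and 37.0% of all genes, and the relative median was -0.64. In control cells 4 fell and 1 rose, beside 13.3% and 12.2%, with a relative median of -0.32. The change was higher than in control cells for 4 members and lower for 4, beside 29.6% and 19.9% of all genes. HAVCR1, the injury marker KIM-1, read 10.10, 10.17 and 9.95 at 24 h and 8.98, 8.16 and 10.08 at 72 h in Ota cells. It fell by 1.00 ± 0.37 (adjusted p = 0.034), but the third array at 72 h lay within the 24 h range. Spike-in scaling, which adds 0.93 to every Ota change, takes away most of this fall. LCN2, a secreted injury marker, varied from 3.66 to 7.93 among the 24 h arrays and did not pass the test (adjusted p = 0.42). The keratin KRT7 fell by 2.08 and the intermediate filament VIM by 1.22 (-0.30 and not called after spike-in scaling), while CCN2, a matrix-associated growth factor, rose by 1.97. Spike-in scaling gave 10 higher and 1 lower.

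Junction genes mostly failed the test, with 4 of 22 higher and 4 lower, beside 37.0% and 23.3% of all genes. Single members moved far. Spike-in scaling gave 17 higher and 1 lower of them, and centring 3 and 7. CDH1, the epithelial cadherin, fell from 8.01, 7.03 and 7.33 to 5.92, 5.73 and 5.21 in Ota cells and rose from 8.09, 7.48 and 7.64 to 8.86, 8.50 and 9.06 in control cells. The changes were -1.83 ± 0.28 and 1.06, and they differed by -2.90 ± 0.39 (adjusted p = 0.00015). The tight junction protein OCLN rose by 2.77, from 7.03, 4.64 and 7.45 to 9.22, 8.80 and 9.42. Matrix and TGF-beta genes fell in 11 of 28 cases and rose in 7, beside 23.3% and 37.0% of all genes. In control cells 12 fell and 2 rose, beside 13.3% and 12.2%. LOXL2, a collagen cross-linking enzyme, fell by 1.92 and collagen COL4A2 by 1.42, and both also fell in control cells, by 1.29 and 0.64. COL4A2 was not called after spike-in scaling (-0.50). Fibronectin, FN1, fell from 14.23, 14.46 and 14.10 to 12.75, 13.50 and 12.94, with no change past the threshold in control cells (adjusted p = 0.993). Spike-in scaling, which adds 0.93, takes away most of the FN1 fall. PLAU, the urokinase protease, rose by 1.26. Its receptor PLAUR was 1.92 higher by the brightest probe set and -0.81 by another, so no direction is given. Of the matrix and TGF-beta genes 4 rose without the second 24 h array, and spike-in scaling gave 13 higher and 2 lower.

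Some genes followed time in both treatments. CRYM, a thyroid hormone binding protein of the cytosol, fell by 3.46 ± 0.19 in Ota cells (adjusted p = 2.4e-07) and by 3.15 in control cells, with a difference of -0.31 ± 0.26 that did not pass the threshold (adjusted p = 0.35). Its Ota values were 11.27, 11.79 and 11.16 at 24 h and 7.65 to 8.17 at 72 h, and its control values 10.97, 10.98 and 10.78 and then 7.85, 7.69 and 7.73. TXNIP, which is induced by glucose and restrains its uptake, fell in both but less in Ota cells, by 3.05 against 6.02. The difference passed the test (2.98 ± 0.58, adjusted p = 0.0015). Its control mean at 72 h was 3.79, under 4, so the size of the control fall is uncertain. The sodium channel gene SCN3A fell by 3.04 in Ota and 3.74 in control cells. Its means at 72 h, 3.54 and 2.71, were under 4, so these sizes are uncertain.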

How the data were processed

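Per the submitters' processing notes the authors made the log2 values of each Affymetrix probe set with GCRMA, with no version given. Which arrays were normalized together is not given in the sources used here. The values were analysed unaltered. Of 54675 probe sets, 41097 carried a single gene symbol in the platform annotation. Such a probe set counted as measured if it exceeded 4 on 3 or more of the 12 arrays, and each gene was taken from its brightest measured probe set by mean, which left 10729 genes. Groups followed the labels.

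Group means were fitted over all 12 arrays with limma 3.58.1 in R 4.3.3 (8 residual and 3.56 prior degrees of freedom), so the spread is shared by all groups. The contrasts were 72 h minus 24 h in Ota cells, the same in control cells, and the difference of these. The 2-sided p-values were adjusted over the 10729 genes by Benjamini-Hochberg, with a threshold of 0.05. The median standard error was 0.21 for the Ota change and 0.30 for the difference. The number of arrays limits the precision. Array-wide values were compared by exact permutation over 3 against 3 arrays. The fit was checked on simulated data.

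The comparison, the 25 gene lists and the marker lists were chosen with earlier results of these data known. The text names 12 rises and 12 falls, the largest past the threshold with a mean of at least 8 in the higher group, non-overlapping arrays and all other probe sets of the same sign. It also names the 4 genes with the largest smaller change in each combination of Ota and control direction, and from each list up to 3 with the largest change of at least 1 in its main direction and 1 in the other. Other list members were picked after their values were seen. Alternatives were other scalings, filters, probe set rules, variance models, thresholds, the replicate number as a block, single treatments and leaving out each array.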

Additional observations from a re-analysis of the deposited data

Results flagged for a closer look

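The 8 genes that follow moved past the threshold of limma in opposite directions in Ota and control cells. They were chosen for this, so that the difference between the changes is past the threshold too follows from the choice and is no further support. They are the 4 genes of each pattern with the largest smaller change, among 407 that rose in Ota cells and fell in control cells and 223 that did the reverse. POLQ, a polymerase that repairs double-strand breaks by end joining, rose by 3.71 in Ota cells, from 2.89, 2.96 and 3.22 to 6.73, 6.31 and 7.17, and fell by 2.98 in control cells, a difference of 6.70. Its lower values, also those at 72 h in control cells with a mean of 3.82, lie near or under 4, so the size of its changes is uncertain. TM4SF1, a membrane protein, rose from 9.96, 9.27 and 10.50 to 12.45, 11.83 and 12.90 and fell in control cells from 11.68, 11.16 and 11.54 to 9.03, 8.77 and 8.80, a difference of 5.08. CCNE1, the cyclin of entry into S phase, went from 5.06, 4.53 and 5.60 to 7.22, 7.19 and 6.82 in Ota cells and from 6.96, 7.00 and 7.32 to 4.76, 4.85 and 4.68 in control cells, a difference of 4.34. RIBC2 differed by 4.06.

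In the other direction, LOX, which cross-links collagen, fell in Ota cells from 6.71, 7.36 and 6.47 to 5.08, 4.98 and 4.36 and rose in control cells from 6.46, 6.35 and 6.46 to 8.91, 8.90 and 9.30, a difference of -4.66. Its Ota change of -2.04 was -0.90 as a mean over its probe sets. PCK2, the mitochondrial phosphoenolpyruvate carboxykinase and an ATF4 target, fell by 2.63 and rose by 2.02, a difference of -4.65. AFF3 and CCPG1, a receptor for autophagy of the endoplasmic reticulum, differed by -3.84 and -4.05. CCPG1 was measured by a single cross-hybridizing probe set. It read 3.39, 4.02 and 3.19 in Ota cells at 72 h, near or under 4, so the size of its fall is uncertain. In all 8 genes the 3 arrays of 1 time lay entirely above those of the other, in Ota cells and in control cells alike. Genes chosen for large changes past the threshold in both are likely to show this, so it is no further support.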

How the results depend on the processing

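With scaling to the spike-ins the genes higher and lower at 72 h in Ota cells became 7385 and 707, those moving more upward or downward than in control cells 5908 and 524, and those higher and lower in control cells 576 and 704. A log2 change of at least 1 left 2478 and 1390 in Ota cells and 586 and 624 in control cells. Array weights gave 3297 genes moving more downward in Ota cells, and 2597 higher and 2837 lower in control cells. Fitting the control arrays alone gave 2103 and 2206 there, and fitting the Ota arrays alone gave 3147 and 2035 in Ota cells. An adjusted p under 0.01 left 1400 genes moving more downward in Ota cells, and 719 higher and 828 lower in control cells. Without cross-hybridizing probe sets, which leaves 8055 genes to test, 917 were lower in control cells, and SQSTM1 and PLAUR turned to -0.58 and -0.81. The cause of the other moves was not tested.

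Leaving out each array in turn gave 3345 to 4169 higher and 2208 to 2526 lower genes in Ota cells, 904 to 1766 and 994 to 1817 in control cells, and 2745 to 3616 and 1854 to 2272 for the difference. Of 2788 values of 123 named genes under the alternatives, 2769 kept their direction and side of the threshold, 17 in 10 genes fell short of it and 2 reversed. Of 575 relative list medians 15, in 11 lists, moved beyond the spread and 2 changed sign. Many of the 575 could not move. Spike-in scaling, centring, the replicate block and the variance trend leave a relative median as it is. So do fitting the Ota arrays alone and leaving out a control array. The count of 15 is therefore no measure of how stable the lists were. Samples of equal number at 24 and 72 h had deviations correlated at 0.15, -0.02 and -0.05 in Ota cells and 0.22, 0.08 and 0.17 in control cells, so the numbers were not taken to pair the arrays. With the replicate block 3993 and 2522 genes were called in Ota cells, 1348 and 1462 in control cells, and 3239 and 2160 for the difference. Array number and the uncertain values under 4 limit what can be ordered.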

Other observations

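The median change in Ota cells differed among genes of different length and of different level. Of the tested genes 10719 had a length in the annotation and were put into 10 bins of near equal size, from short to long. The median change from 24 to 72 h in these bins was -0.07, -0.01, 0.16, 0.26, 0.30, 0.35, 0.35, 0.26, 0.26 and -0.002. The bin of the shortest genes covered 0.07 to 5.16 kb, that with the highest median 43.6 to 61.1 kb, and that of the longest genes began at 155.8 kb. In control cells the medians of the same bins stayed between -0.03 and 0.05. Bins by mean level over all arrays had Ota medians from -0.02 in the lowest to 0.43 in the fifth and 0.04 in the highest, so length did not stand alone, and the share of each was not separated. Genes are not replicates, and no test was made across them.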
